A study of Mus musculus with 79 samples.

Results

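The Hox cluster genes are the mouse genes of the HoxA, HoxB, HoxC and HoxD clusters. They were taken as every gene whose symbol is Hox, a cluster letter from a to d and a number, and all 39 such genes were listed in each of the 6 deposited tables, among 23511 gene names for the KO and WT fibroblasts, 20800 for the DZnep and DMSO fibroblasts and 24346 for the SCN. RNA was sequenced in 79 libraries from 3 experiments around adenosylhomocysteinase (AHCY), the enzyme that clears S-adenosylhomocysteine, a by-product and inhibitor of methylation. The first set mouse embryonic fibroblasts (MEF) on a C57BL/6J background that lack AHCY after CRISPR-Cas9 editing (KO) against wild-type fibroblasts (WT), both after a 1 h pulse of 100 nM dexamethasone, with 3 libraries at each of 6 circadian times (CT), from CT12 to CT32 (18 libraries each). The second set fibroblasts given 3-deazaneplanocin A (DZnep), an AHCY inhibitor, against fibroblasts given its solvent DMSO, at CT12 and CT24 after the same dexamethasone pulse, with 3 libraries per group (6 each). The third set the suprachiasmatic nucleus (SCN), the hypothalamic pacemaker, of C57BL/6 mice aged 10 weeks with DZnep infused into the hypothalamus against the SCN of mice infused with saline, at CT3, CT9, CT15 and CT21, with 4 libraries at each time except for saline at CT21, which had 3 (16 and 15 libraries). Neither the number of KO clones nor the DZnep dose is stated in the labels.

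Hox genes encode homeodomain transcription factors that give cells their position along the body axis and the limbs. In each cluster the genes lie in a row and are numbered by paralog group: low numbers are active in anterior parts of the embryo and high numbers in posterior and distal parts. Polycomb complexes keep unused members silent and Trithorax complexes keep used members active, and fibroblasts in culture are known to retain the Hox pattern of the body site they came from. By GENCODE vM21 on GRCm38, HoxA (11 genes) spanned bases 52155590 to 52260880 of chromosome 6, minus strand, HoxB (10 genes) on the plus strand of chromosome 11 from 96194316 to 96368256, HoxC (9 genes) on the plus strand of chromosome 15 from 102921103 to 103036852 and HoxD (9 genes) on the plus strand of chromosome 2 from 74668310 to 74765142.

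The RefSeq promoter table (GRCm38.p6) held 24 start sites of 22 of the 39 genes. The 250 bases before the start are shown for 4 of these sites that overlap no annotated exon and that differ in how their genes behaved between KO and WT, chosen with these values known: Hoxd4, present in KO and near 0 in WT, Hoxa5, present in both, and Hoxa9 and Hoxa10, present in WT and near 0 in KO. Capitals mark CG dinucleotides, the sites of DNA methylation in mammals.
Hoxd4 (chr2:74721728-74721977, plus strand): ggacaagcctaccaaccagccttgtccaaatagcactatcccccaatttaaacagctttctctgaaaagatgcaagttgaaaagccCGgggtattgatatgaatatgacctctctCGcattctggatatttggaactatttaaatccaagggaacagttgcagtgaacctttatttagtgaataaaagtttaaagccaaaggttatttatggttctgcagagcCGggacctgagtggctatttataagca
Hoxa5 (chr6:52204588-52204837, minus strand): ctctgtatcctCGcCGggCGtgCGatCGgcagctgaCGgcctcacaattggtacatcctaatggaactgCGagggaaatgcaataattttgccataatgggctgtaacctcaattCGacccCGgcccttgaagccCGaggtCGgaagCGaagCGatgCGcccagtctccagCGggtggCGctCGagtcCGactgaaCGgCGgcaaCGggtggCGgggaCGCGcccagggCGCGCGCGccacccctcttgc
Hoxa9 (chr6:52227371-52227620, minus strand): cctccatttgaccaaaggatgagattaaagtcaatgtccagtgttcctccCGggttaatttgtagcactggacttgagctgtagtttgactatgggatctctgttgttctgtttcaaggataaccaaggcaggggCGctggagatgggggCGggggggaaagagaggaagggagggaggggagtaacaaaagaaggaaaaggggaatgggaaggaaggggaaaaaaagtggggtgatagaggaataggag
Hoxa10 (chr6:52240855-52241104, minus strand): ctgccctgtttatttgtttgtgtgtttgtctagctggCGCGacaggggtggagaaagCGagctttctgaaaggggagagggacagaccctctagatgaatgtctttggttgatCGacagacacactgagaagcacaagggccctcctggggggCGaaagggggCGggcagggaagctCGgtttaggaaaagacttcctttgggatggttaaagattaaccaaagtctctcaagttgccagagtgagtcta
The window held 3 CG dinucleotides for Hoxd4, 28 for Hoxa5, 3 for Hoxa9 and 7 for Hoxa10. The windows of Hoxd4 and Hoxa9 lie inside the annotated spans of their own genes, before internal starts. Those of Hoxa5 and Hoxa10 lie just outside the spans of their own genes, so these counts set unlike kinds of site side by side. Over the 24 Hox windows the count ran from 2 to 35 with a median of 12.5, against a median of 6 over all 32851 windows of the table. On either strand, CCAAT stood in 14 of the 24 Hox windows (58.3%, against 33.8% of all windows), TATAAA in 4 (16.7%, against 12.4%), the E-box CACGTG in 4 (16.7%, against 6.02%) and TGATTNAT, a letter pattern of PBX and HOX pairs, in 2 (8.33%, against 2.82%). No overlap between these patterns was removed, and a match is a description of letters only.

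Before the comparisons, libraries that stood apart were looked for. Ahcy ran from 2.21 to 4.74 TPM (a length-scaled transcript share) in KO and from 131 to 214 TPM in WT, so the targeted gene matched the labels. The KO and WT cells also differed in sex-linked RNAs: Xist, the RNA of the inactive X, ran from 0.0508 to 0.273 TPM in KO and from 135 to 220 TPM in WT, and the Y-linked Ddx3y ran from 16.2 to 20.3 TPM in KO and from 0.176 to 0.536 TPM in WT. A difference between KO and WT therefore cannot be told apart from a difference between embryos or lines. The DZnep and DMSO fibroblasts were like WT in these RNAs. Xist ran from 65.9 to 84.1 FPKM (fragments per kilobase, scaled to library size) with DZnep and from 44.1 to 128 FPKM with DMSO. Ddx3y ran from 0.0279 to 0.103 FPKM with DZnep and from 0.0509 to 0.117 FPKM with DMSO. Nothing states that libraries of one group came from separate cultures, so p-values measure the spread between these libraries. The 10 fibroblast markers were present (9 of 10 at 1 TPM or more in every KO library, with Lum below it, and 10 of 10 in WT) with summed levels of 5743 to 6716 TPM in KO and 7469 to 10657 TPM in WT. Summed epithelial markers ran from 0.194 to 0.741 TPM in KO and from 12.9 to 21.9 TPM in WT, and of the 6 only Krt19 reached 1 TPM. Their part in the Hox results was not tested, and in such bulk RNA fewer cells of a type and less RNA per cell cannot be told apart. The 3 WT libraries of CT20 held skeletal muscle mRNA (8 markers, up to 553 TPM summed, against at most 7.55 TPM in any KO library), and 7 libraries (3 KO, 3 WT and 1 DMSO) held over 2 times their arm's median of the nuclear RNA Malat1. Counts without these libraries follow each result they change.

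Which Hox genes were on differed by arm. In WT, 23 of the 39 genes stood at 1 TPM or more in every library, among them Hoxa2 to Hoxa7, Hoxa9, Hoxa10, Hoxb2 to Hoxb9, Hoxc4, Hoxc5, Hoxc6, Hoxc8, Hoxc9 and Hoxc10. In DMSO fibroblasts, a separate experiment, the same 23 genes stood at 1 FPKM or more in every library. WT and DMSO also share the sex-linked pattern, so their match cannot be told apart from a shared sex or line. Of these 23, 15 also stood at 1 TPM or more in every KO library, all of them HoxA and HoxB genes of paralog groups 1 to 9. The other 8 were Hoxc9, which ran from 0.508 to 1.48 TPM in KO, and 7 that stayed below 1 TPM in every KO library: Hoxa9, Hoxa10, Hoxc4, Hoxc5, Hoxc6, Hoxc8 and Hoxc10. In the other direction, Hoxd3 and Hoxd4 stood at 1 TPM or more in every KO library and below 1 TPM in every WT library.

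**Figure D1:**
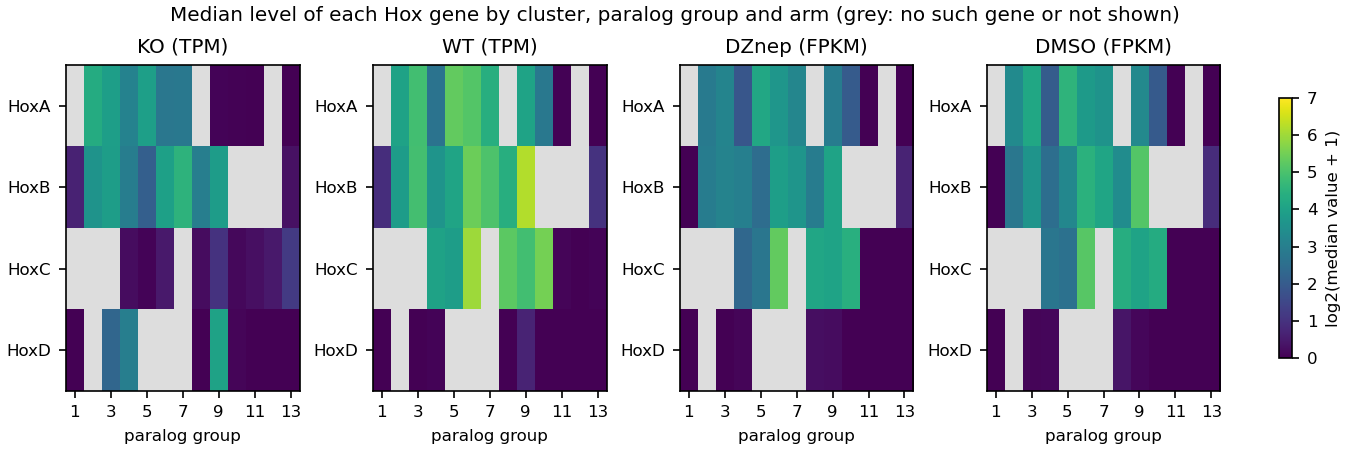
Median level of each Hox gene as log2(median + 1), by cluster (rows), paralog group (columns) and arm (panels; TPM for KO and WT, FPKM for DZnep and DMSO), with colour from 0 to 7 and grey where there is no such gene or no value is shown. Hoxc4 to Hoxc10, Hoxa9 and Hoxa10 are dark in KO and brighter in the other 3 panels, and Hoxd3, Hoxd4 and Hoxd9 stand out of the dark HoxD row in KO alone. WT, DZnep and DMSO also share a sex-linked pattern that KO lacks, and the colours of TPM and FPKM panels are not on the same scale.

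There were 10 Hox genes below 1 (TPM or FPKM, by arm) in all 79 libraries: Hoxa11, Hoxa13, Hoxc11, Hoxc12, Hoxd1, Hoxd8, Hoxd10, Hoxd11, Hoxd12 and Hoxd13. Apart from Hoxd1 and Hoxd8 these are posterior genes, which pattern limbs, digits, tail and genital tract. Hoxc12 was listed at 0 in all 18 WT libraries and ran from 0.152 to 0.726 TPM in KO, with a median of 0.405 TPM. Hoxd8 reached at most 0.315 FPKM in DZnep and 0.402 FPKM in DMSO and was listed at 0 in every KO library. Read depth is unknown, so no detection limit can be given for values this low.

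The HoxC cluster was the one most reduced in KO. Its summed level ran from 2.75 to 5.83 TPM in KO, with a median of 3.92 TPM, against 171 to 249 TPM in WT, with a median of 203 TPM. HoxA summed to a median of 73.5 TPM in KO (65.0 to 83.7 TPM) and 168 TPM in WT (123 to 229 TPM), and HoxB to 93.2 TPM in KO (86.2 to 111 TPM) and 237 TPM in WT (218 to 261 TPM). HoxD ran the other way, with a median of 26.5 TPM in KO (23.2 to 32.6 TPM) and 0.740 TPM in WT (0.428 to 1.64 TPM). As a share of the summed Hox level, HoxC made up a median of 1.97% in KO and 33.0% in WT, and HoxD 13.4% in KO and 0.121% in WT. No cluster's KO libraries overlapped its WT libraries in summed level. Over all 39 genes the sum was 184 to 230 TPM in KO and 521 to 737 TPM in WT.

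**Figure D2:**
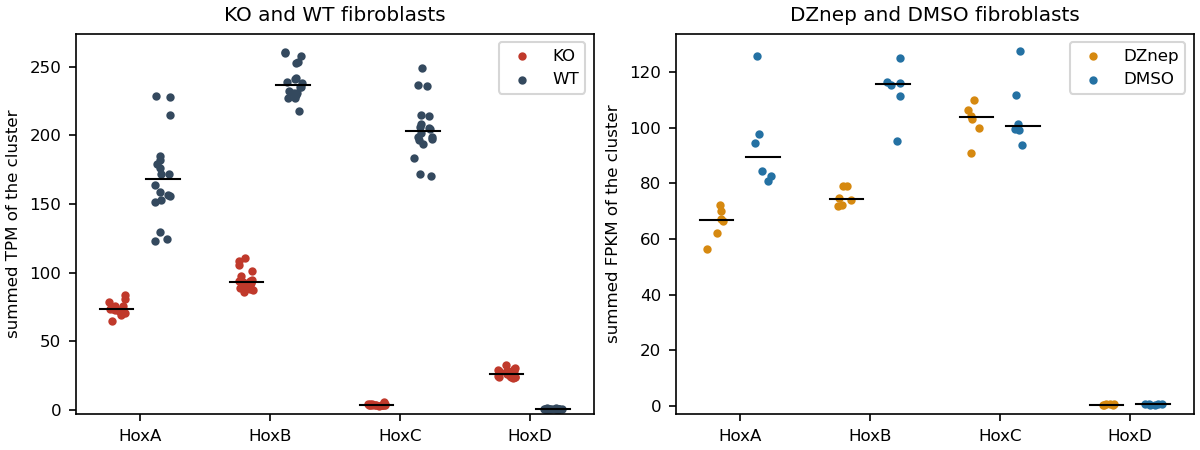
Summed level of each cluster in every library (points) with the arm's median (bars), in TPM for KO and WT and in FPKM for DZnep and DMSO. KO libraries lie below WT libraries for HoxA, HoxB and HoxC and above them for HoxD, while DZnep lies below DMSO for HoxA and HoxB and the arms overlap for HoxC and HoxD.

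Gene by gene, 29 Hox genes stood at 1 TPM or more in at least 3 libraries and were tested for the difference between KO and WT averaged over the 6 times, with limma on log2(TPM + 1) and Benjamini-Hochberg adjustment over all 13603 genes tested. Of the 29, 7 rose in KO and 22 fell, which is every gene tested, where 89.6% of all genes were called (42.6% higher and 47% lower). A call is therefore the common case in this comparison, and the size says more. At a log2 change of 1 or more in size, 21 of the 29 were called, where 18% of all genes were: 4 higher (7.23% of all genes) and 17 lower (10.8% of all genes). The median log2 change was -1.58 over the 29 Hox genes and -0.05 over all genes. Of the 29, 4 passed the filter through KO libraries alone (Hoxc13, Hoxd3, Hoxd4 and Hoxd9) and 9 through WT libraries alone (Hoxa9, Hoxa10, Hoxb1, Hoxb13, Hoxc4, Hoxc5, Hoxc6, Hoxc8 and Hoxc10), so the filter favoured a difference in these 13 and their count is no support for one. Rescaling shifted KO against WT by 0.22 on the log2 scale, and with values as deposited the same counts of 7 and 22 held.

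In HoxC, which patterns the trunk from neck to loin, all 6 genes of paralog groups 4 to 10 fell to near 0. Hoxc6, a gene of the thoracic region, had 0.198, 0.391 and 0.618 TPM (lowest, median and highest) in KO, against 49.5, 61.6 and 78.3 TPM in WT, a log2 change of -5.66 (SE 0.035). Hoxc10, a lumbar and hindlimb gene, had 0.0305, 0.114 and 0.436 TPM in KO, against 40.4, 45.3 and 55.1 TPM in WT, a log2 change of -5.50 (SE 0.026). Hoxc8, which patterns the lower thorax, had 0.0841, 0.178 and 0.433 TPM in KO, against 31.6, 36.6 and 42.2 TPM in WT, a log2 change of -5.09 (SE 0.025). In these 3 the highest KO library stood far below the lowest WT library. Hoxc9, another thoracic gene, kept the highest level of the 6 in KO, with 0.508, 1.03 and 1.48 TPM, against 24.0, 28.6 and 35.9 TPM in WT, a log2 change of -4.06 (SE 0.030). Hoxc5, a cervical and thoracic gene, had 0, 0.0512 and 0.1 TPM in KO, against 11.3, 13.9 and 23.2 TPM in WT, a log2 change of -4.00 (SE 0.048). Hoxc4, the most anterior HoxC gene, had 0, 0.184 and 0.653 TPM in KO, against 11.4, 15.5 and 19.2 TPM in WT, a log2 change of -3.84 (SE 0.051). The libraries of KO and WT did not overlap in any of the 6. The annotated span of Hoxc5 covers Hoxc6, Hoxc8, Hoxc9 and Hoxc10, and the fibroblast library kit does not mark strand, so reads of these genes may be split between them. The changes are on the log2(TPM + 1) scale, which understates those of genes near 0, and adjusted p (limma) ran from 3.4e-41 for Hoxc10 to 6.1e-31 for Hoxc4.

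Hoxc13, a gene of hair and nail formation that passed the filter through KO libraries alone, was higher in KO at a low level. It had 0.846, 1.27 and 1.82 TPM in KO, against 0, 0.0473 and 0.144 TPM in WT, a log2 change of 1.04 (SE 0.027, adjusted p = 7.4e-24, limma). Hoxc11, a hindlimb gene, ran from 0.0486 to 0.434 TPM in KO and from 0 to 0.159 TPM in WT and did not pass the filter. With no filter on low values the counts for all Hox genes were 10 higher and 25 lower of 38.

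HoxA held genes that rose and genes that fell. Hoxa2, which patterns the hindbrain and pharyngeal arches, had 16.4, 18.7 and 23.8 TPM in KO, against 11.4, 15.5 and 18.1 TPM in WT, a log2 change of 0.10 (SE 0.029, adjusted p = 0.0020, limma). Hoxa4, a cervical gene, had 4.38, 7.64 and 9.62 TPM in KO, against 3.49, 5.34 and 8.68 TPM in WT, a log2 change of 0.21 (SE 0.062, adjusted p = 0.0024, limma). The KO and WT libraries overlapped in both.

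Hoxa3, which lies before Hoxa4, and the tested genes from Hoxa5 to Hoxa10 fell. Hoxa5, needed for lung and sternum formation, had 10.5, 14.4 and 16.6 TPM in KO, against 27.9, 38.9 and 54.1 TPM in WT, a log2 change of -1.59 (SE 0.038). Hoxa6 had 4.57, 5.87 and 8.41 TPM in KO, against 20.9, 33.9 and 56.8 TPM in WT, a log2 change of -2.49 (SE 0.044). Hoxa7 had 4.79, 5.95 and 8.03 TPM in KO, against 13.4, 19.8 and 27.3 TPM in WT, a log2 change of -1.73 (SE 0.032). These genes, which pattern the thorax, fell but stayed on in KO, and so did Hoxa3, a gene of thymus and parathyroid formation, with a log2 change of -1.21 (SE 0.035). Hoxa9, a gene of limb and blood formation and the next one after Hoxa7, had 0, 0.0579 and 0.196 TPM in KO, against 12.9, 15.8 and 19.7 TPM in WT, a log2 change of -4.10 (SE 0.027). Hoxa10, a gene of limb and uterus, had 0, 0.0317 and 0.156 TPM in KO, against 5.13, 6.03 and 7.20 TPM in WT, a log2 change of -2.87 (SE 0.025). Between Hoxa7, which ends at 52221854, and Hoxa9, which begins at 52223100, the medians in KO were 0.0579 TPM for Hoxa9 and 5.95 TPM for Hoxa7, and those in WT 15.8 TPM for Hoxa9 and 19.8 TPM for Hoxa7. The span of Hoxa3 covers Hoxa4, Hoxa5 and Hoxa6, so their values may share reads.

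**Figure D3:**
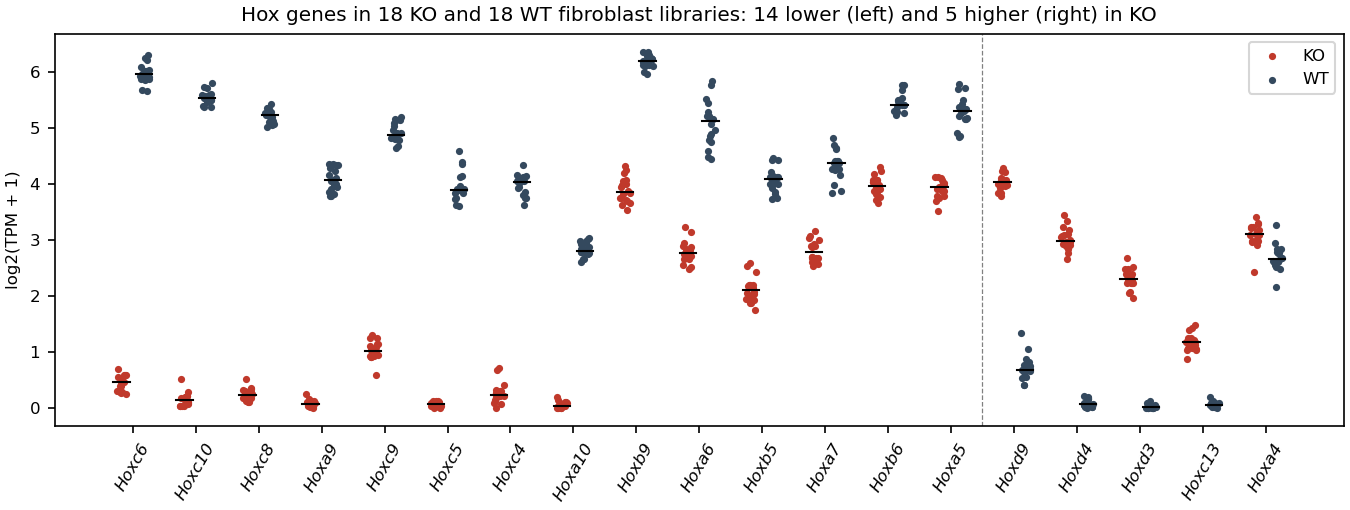
Level of the 14 Hox genes with the largest fall and 5 of those with the largest rise in KO against WT, as log2(TPM + 1), in each of 18 KO and 18 WT libraries (points) with the arm's median (bars). The first 8 genes lie near the bottom in KO, the next 6 lie lower in KO but above 1, and Hoxd9, Hoxd4, Hoxd3 and Hoxc13 lie near the bottom in WT.

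In HoxB all 10 genes were lower in KO, and 8 of them stayed at 1 TPM or more in every KO library. Hoxb9, a thoracic gene and the highest of the 39 in WT, had 10.6, 13.6 and 19.0 TPM in KO, against 61.4, 72.5 and 81.7 TPM in WT, a log2 change of -2.51 (SE 0.021). Hoxb5 had 2.38, 3.32 and 5.02 TPM in KO, against 12.3, 16.0 and 21.3 TPM in WT, a log2 change of -2.14 (SE 0.047). Hoxb6 had 11.7, 14.7 and 18.8 TPM in KO, against 36.6, 41.8 and 54.0 TPM in WT, a log2 change of -1.68 (SE 0.023). In these 3 the arms did not overlap. The log2 changes of the other 7 were -1.58 for Hoxb8, -1.20 for Hoxb3, -0.82 for Hoxb4, a regulator of blood stem cells, -0.75 for Hoxb13, a gene of tail and prostate, -0.68 for Hoxb7, -0.49 for Hoxb2 and -0.40 for Hoxb1, which patterns the hindbrain. Hoxb1 was low in both arms (median 0.590 TPM in KO and 0.892 TPM in WT) and was not called after quantile normalization (log2 change -0.11, adjusted p = 0.16, limma). Hoxb7 had the highest median of all Hox genes in KO, 22.0 TPM, against 32.0 TPM in WT.

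Of the 9 HoxD genes, 3 were tested, all of them through KO libraries alone, so that their common direction was favoured by the filter. Hoxd9, a gene of the upper limb skeleton, had 12.9, 15.4 and 18.6 TPM in KO, against 0.340, 0.614 and 1.54 TPM in WT, a log2 change of 3.16 (SE 0.053, adjusted p = 1.6e-28, limma). Hoxd4, a cervical gene, had 5.33, 6.96 and 9.95 TPM in KO, against 0, 0.0558 and 0.158 TPM in WT, a log2 change of 2.83 (SE 0.029, adjusted p = 1.7e-33, limma). Hoxd3, which shapes the uppermost vertebrae, had 2.9, 3.94 and 5.43 TPM in KO, against 0, 0.0175 and 0.0976 TPM in WT, a log2 change of 2.19 (SE 0.032, adjusted p = 6.9e-30, limma). The arms did not overlap in any of the 3. The other 6, which include Hoxd8 between Hoxd4 and Hoxd9, did not exceed 0.189 TPM in any KO library. The spans of Hoxd3 and Hoxd4 overlap, so their reads may be shared. Over all 29 tested Hox genes the libraries of KO and WT did not overlap for 23, where 48.5% of all genes tested did not. Of these 23, 5 were higher in KO (31.7% of all genes) and 18 lower (16.8% of all genes). Among the 5 were Hoxc13, Hoxd3, Hoxd4 and Hoxd9, tested through KO libraries alone. Among the 18 were Hoxa9, Hoxa10, Hoxc4, Hoxc5, Hoxc6, Hoxc8 and Hoxc10, tested through WT libraries alone. The filter favoured the separation of these genes, so their part of the count is no support for a difference. Leaving out any of the 36 libraries, the CT20 libraries or the libraries with high Malat1 left 7 higher and 22 lower.

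With DZnep the log2 changes of Hox genes ran from -1.12 to 0.34. Of the 23 Hox genes tested in the DZnep and DMSO fibroblasts, 1 rose and 14 fell with DZnep, where 65.9% of 10896 genes were called (33.1% higher and 32.7% lower), and 8 did not pass. The median log2 change was -0.44 over the 23 Hox genes and 0.01 over all genes. The 23 were all at 1 FPKM or more in every DMSO library, so none passed the filter through 1 arm alone. Only Hoxa3 and Hoxb9 fell by 1 or more on the log2 scale, 8.7% of the 23, where 2.99% of all genes fell that far. None rose that far (2.23% of all genes), and in either direction 5.22% of all genes moved that far. By cluster, 6 of 9 tested HoxA genes, 6 of 8 HoxB genes and 2 of 6 HoxC genes fell, and the contrast between clusters was not tested. Fibroblast markers summed to 2220 to 2412 FPKM with DZnep and 3790 to 4544 FPKM with DMSO, and their part in the Hox results was not tested.

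**Figure D4:**
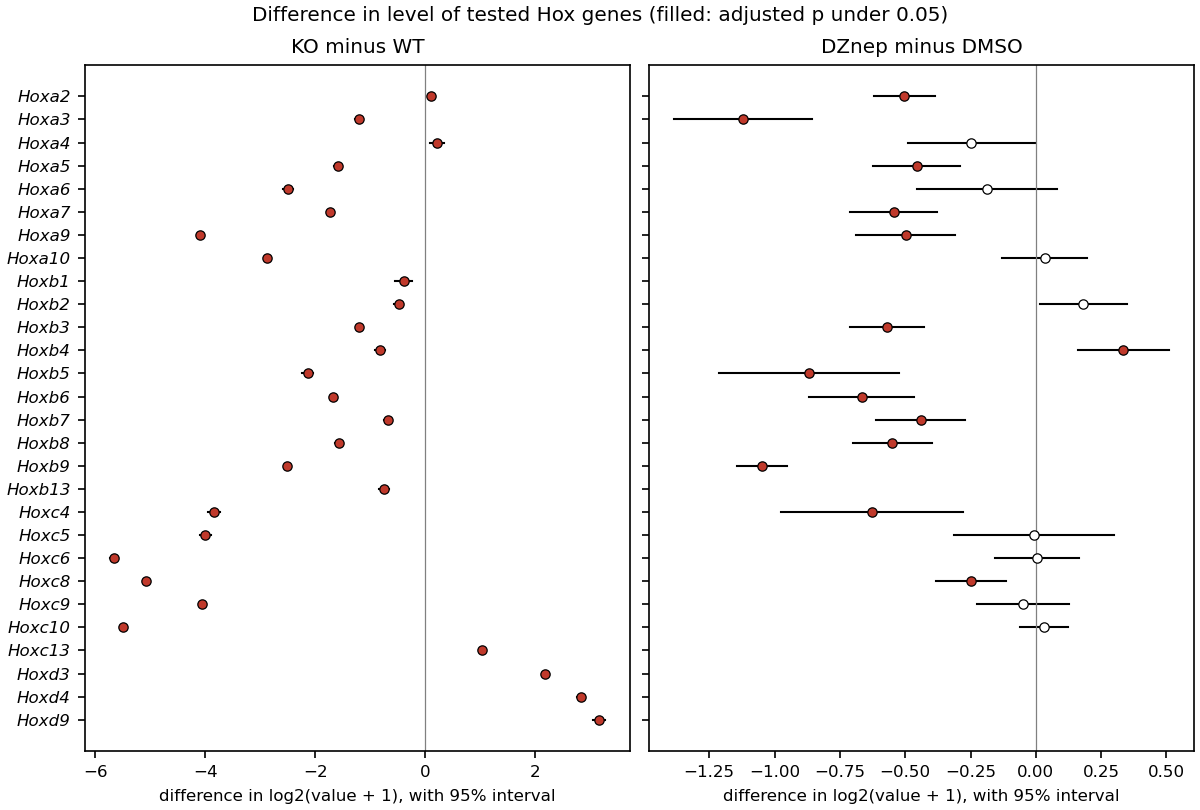
Difference in log2(value + 1) of tested Hox genes, with 95% intervals, for KO minus WT (left, from -5.66 to 3.16) and DZnep minus DMSO (right, from -1.12 to 0.34), in the order of the clusters. Filled points passed an adjusted p of 0.05, and genes with no point on the right were not tested there.

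Hoxa3 fell most. It had 7.65, 7.53 and 8.74 FPKM at CT12 and 7.85, 8.87 and 8.14 FPKM at CT24 with DZnep, against 15.8, 17.6 and 16.5 FPKM at CT12 and 15.6, 28.4 and 17.7 FPKM at CT24 with DMSO, a log2 change of -1.12 (SE 0.12). Every DZnep library stood below every DMSO library, of which replicate 2 at CT24 stood above the other 5. Hoxb9 had 14, 15.8 and 17.7 FPKM (lowest, median and highest) with DZnep, against 27.1, 33.6 and 37.3 FPKM with DMSO, a log2 change of -1.05 (SE 0.044, adjusted p = 4.5e-09, limma). Hoxb5 had 3.25, 4.68 and 5.64 FPKM with DZnep, against 6.59, 8.43 and 14.1 FPKM with DMSO, a log2 change of -0.87 (SE 0.16). Hoxb6 had 12.7, 14 and 15.2 FPKM with DZnep, against 18.8, 21.1 and 29.9 FPKM with DMSO, a log2 change of -0.67 (SE 0.091). In none of these 4 did the arms overlap.

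The other genes that fell did so by less. Hoxc4 had 3.79, 4.07 and 4.57 FPKM with DZnep, against 5.41, 5.73 and 13.3 FPKM with DMSO, a log2 change of -0.63 (SE 0.16). Hoxb3 had 7.13, 7.79 and 8.55 FPKM with DZnep, against 10.7, 11.3 and 14.5 FPKM with DMSO, a log2 change of -0.57 (SE 0.065). Hoxb8 had 5.93, 6.67 and 7.32 FPKM with DZnep, against 8.62, 9.58 and 11.8 FPKM with DMSO, a log2 change of -0.55 (SE 0.069). The arms stood apart in these 3 as well. Hoxa7 had 6.82, 8.27 and 8.91 FPKM with DZnep, against 10.5, 11.1 and 14.6 FPKM with DMSO, a log2 change of -0.54 (SE 0.076). Hoxa2 had 5.64, 6.23 and 7.22 FPKM with DZnep, against 8.44, 9.10 and 9.52 FPKM with DMSO, a log2 change of -0.50 (SE 0.053). Hoxa9, near 0 in KO, kept 5.49, 6.60 and 6.88 FPKM with DZnep, against 8.22, 8.85 and 12.0 FPKM with DMSO, a log2 change of -0.50 (SE 0.086). Hoxa5, Hoxb7 and Hoxc8 fell by 0.46, 0.44 and 0.25 on the log2 scale, with overlapping arms. In 10 of the 23 the DZnep libraries lay wholly below the DMSO libraries, where 13.6% of all genes did. None lay wholly above (16.6% of all genes), and in either direction 30.1% of all genes stood apart.

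Hoxb4 was the gene that rose. It had 5.52, 7.12 and 8.14 FPKM with DZnep, against 4.43, 4.80 and 6.75 FPKM with DMSO, and the arms overlapped (log2 change 0.34, SE 0.080, adjusted p = 0.0029, limma). Its neighbour Hoxb3, whose span begins at 96323326 on chromosome 11 after Hoxb4 ends at 96321638, fell. Among the 8 genes that did not pass, the 95% interval of the log2 change was -0.16 to 0.16 for Hoxc6, -0.06 to 0.12 for Hoxc10, -0.22 to 0.13 for Hoxc9, -0.31 to 0.30 for Hoxc5, -0.13 to 0.20 for Hoxa10, -0.45 to 0.08 for Hoxa6, -0.49 to -0.0044 for Hoxa4 and 0.01 to 0.35 for Hoxb2. Hoxc6 stood at 39.3 FPKM with DZnep and 35.2 FPKM with DMSO (medians), and Hoxc10 at 20.5 FPKM with DZnep and 18.9 FPKM with DMSO. The HoxD sum stayed at 0.412 to 0.536 FPKM with DZnep and 0.413 to 0.748 FPKM with DMSO.

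Replicate 2 of DMSO at CT24, the DMSO library with high Malat1, held the highest DMSO level of several Hox genes. Without it, 2 Hox genes rose and 14 fell with DZnep. Hoxc5 then passed as higher (log2 change 0.15, adjusted p = 0.046, limma), where the fit with all libraries gave -0.01. Hoxa3 fell by 0.99, Hoxc4 by 0.45, Hoxb5 by 0.74 and Hoxa9 by 0.42 without it. Leaving out replicate 1 of DZnep at CT12 or replicate 3 of DMSO at CT24 also gave 2 genes that rose, Hoxb4 and Hoxb2.

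Set side by side, KO and DZnep share no control libraries, and 23 Hox genes and 10742 genes in all were tested in both. Of the 23, 12 fell in both, where 20.5% of all genes did: Hoxa3, Hoxa5, Hoxa7, Hoxa9, Hoxb3, Hoxb5, Hoxb6, Hoxb7, Hoxb8, Hoxb9, Hoxc4 and Hoxc8. Of these 12, Hoxa9, Hoxc4 and Hoxc8 were tested between KO and WT through WT libraries alone, so the filter favoured their fall in KO. None rose in both, where 19.2% of all genes did. Hoxa2 rose in KO and fell with DZnep, and Hoxb4 fell in KO and rose with DZnep. There were 8 that passed in KO and not with DZnep. Among these 8, Hoxa10, Hoxc5, Hoxc6 and Hoxc10 were likewise tested between KO and WT through WT libraries alone. Hoxc6 and Hoxc10, with the largest falls in KO (-5.66 and -5.50), had log2 changes of 0.00 and 0.03 with DZnep.

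In the SCN all 39 Hox genes stood below 1 FPKM in all 31 libraries, so none was tested, and 12 were listed at 0 in all of them. Of the deposited SCN values above 0, 98.9% had 7 or fewer significant digits once multiplied by 4, against 49.5% as deposited and 36.6% when multiplied by 3, a pattern that averages of 4 numbers would give. No source used here says how they were made, so what an SCN library's value, its 0 or its spread stands for is uncertain. Neuronal markers were present there (365 to 514 FPKM summed over 6 markers with DZnep, 403 to 605 FPKM with saline), and the SCN lies in the forebrain, in front of the region where Hox genes act. The sum over all 39 genes ran from 0.0354 to 0.361 FPKM with DZnep and from 0.0605 to 1.06 FPKM with saline. With no filter, limma called 0 of the 27 Hox genes above 0 in any SCN library between DZnep and saline in level, and 0 had an unadjusted p under 0.05. The 24 h cosine with no filter also gave 0 calls by limma. There 1 Hox gene had an unadjusted p under 0.05 with saline, 0 with DZnep and 1 for DZnep against saline. Of the noncoding RNAs of the clusters, 1 was tested in the SCN. It was Hotairm1, transcribed from the anterior end of HoxA, with 0, 0.309 and 4.00 FPKM with DZnep, against 0, 1.75 and 5.90 FPKM with saline (log2 change -0.75, SE 0.20, adjusted p = 0.0050, limma, where 18.3% of 13312 genes fell, 16.9% rose and 35.2% were called). Its arms overlapped widely.

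Over time, Hox genes tended to be highest at the end of the fibroblast course. The group mean on the rescaled log2 scale was highest at CT32 for 18 of the 29 tested genes in KO (25.9% of all genes) and 21 in WT (36.6% of all genes). The 29 include genes below 1 TPM in every library of an arm, such as Hoxc6 in KO and Hoxd3 in WT. For these the time of the highest mean rests on values near 0. All genes were read in the same libraries, so they are not separate observations. In WT, Hoxa6, named after its values were seen, stood at 21.8 ± 1.20 TPM at CT12 and 52.0 ± 6.03 TPM at CT32 (SD, n = 3 each). Tested as a 24 h cosine, 4 Hox genes passed in KO (9.89% of all genes) and 3 in WT (36.5% of all genes). In KO these were Hoxb9 (fitted rise of the peak above the mean, 0.23 in log2 units), Hoxd3 (0.17), Hoxd4 (0.17) and Hoxc13 (0.12), and in WT they included Hoxa10 (0.11) and Hoxb7 (0.11). The times span 20 h, so a drift cannot be told apart from a rhythm. With a linear trend in the fit 1 Hox gene passed in KO (6.67% of all genes) and 9 in WT (31.1% of all genes). None of the 4 genes called in KO and the 3 called in WT by the cosine alone kept its call with the trend. As any difference among times 12 passed in KO (42.7% of all genes) and 20 in WT (69.5% of all genes).

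The 24 h terms of KO and WT differed for 4 Hox genes (14.5% of all genes), among them Hoxb9, Hoxd3 and Hoxd4. Hoxb9 stood at 11.3 ± 0.680 TPM at CT12 and 18.1 ± 0.755 TPM at CT32 in KO, against 75.8 ± 1.16 TPM at CT12 and 66.9 ± 3.10 TPM at CT32 in WT (SD, n = 3 each). Hoxd3 and Hoxd4 were near 0 in WT at every time, so their WT terms rest on values near 0. With a linear trend in the fit 4 Hox genes differed (16.2% of all genes), but none of the first 4 kept its call. The count is unstable. It was 1 without the libraries with high Malat1, 1 without replicate 2 of WT at CT16 or replicate 3 of WT at CT28, and 2 without replicate 2 of KO at CT16, any 1 library of KO at CT32, replicate 3 of WT at CT20 or replicate 1 of WT at CT28. The count in WT was 8 without CT20, and 5 without any 1 of its 3 libraries of CT20 or replicate 3 of CT24.

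**Figure D5:**
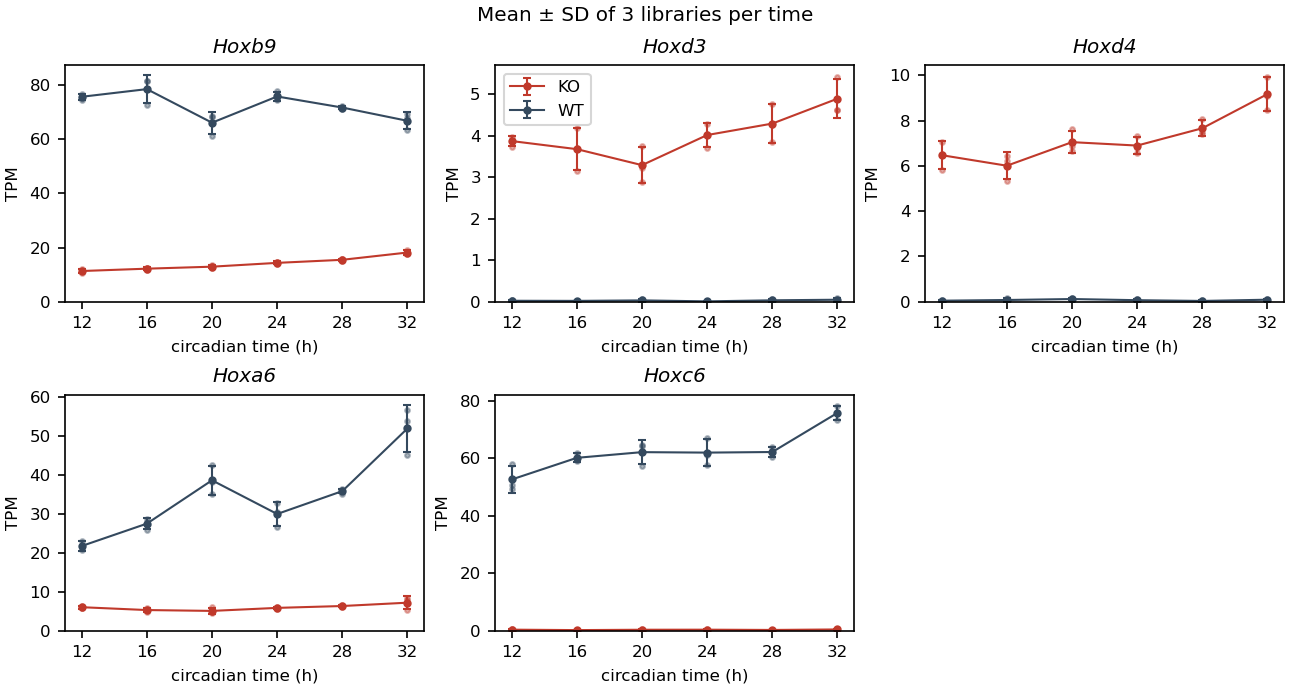
Level in TPM of 5 Hox genes at the 6 circadian times in KO and WT, as the mean ± SD of 3 libraries (lines) with each library (points). Hoxb9 climbs in KO and not in WT, Hoxa6 and Hoxc6 are highest at CT32 in WT, and Hoxd3 and Hoxd4 stay near 0 in WT.

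Between CT12 and CT24 in the second experiment, 4 Hox genes rose and 1 fell with DZnep (19.4% and 17.8% of all genes, 37.2% in all), and 7 rose and 1 fell with DMSO (26.8% and 23.9% of all genes, 50.7% in all). Hoxc10 rose by 0.28 on the log2 scale in both arms (SE 0.059 each, adjusted p = 0.0036 with DZnep and 0.0029 with DMSO, limma). Hoxa5 rose by 0.36 with DZnep (SE 0.11) and 0.55 with DMSO (SE 0.11), Hoxc6 by 0.31 with DZnep and 0.30 with DMSO, and Hoxb4 by 0.34 with DZnep and 0.30 with DMSO. Hoxa6 rose by 0.83 with DMSO (SE 0.17). The time change differed between the arms for 0 of the 23 (6.11% of all genes) by limma, and 2 had an unadjusted p under 0.05. Leaving out 1 library moved these counts to between 1 and 7 higher with DZnep (any of its 6 libraries, or replicate 2 of DMSO at CT24) and between 3 and 13 higher with DMSO (any of its 3 libraries of CT12, or replicate 1 at CT24).

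Regulators and partners of Hox genes were read from lists, and their counts stand beside high shares of all genes. Between KO and WT, 42.6% of all genes rose and 47% fell, so nearly every member of any list was called. A gene below 1 TPM in every KO library, such as Pknox2 or Chn1, was tested through WT libraries alone. The filter favoured a fall in such a gene, and a rise in a gene below 1 TPM in every WT library. Among all genes in fibroblasts 33.1% rose and 32.7% fell with DZnep, and in the SCN 16.9% rose and 18.3% fell. The median log2 change over all genes was -0.05 in KO, 0.01 with DZnep in fibroblasts and -0.005 in the SCN. The TALE partners, homeodomain proteins that bind DNA with HOX proteins, split in KO (5 higher and 4 lower of 9, median log2 change 0.10), with Pknox2 at -3.37, Meis1 at 1.07 and Meis2 at 0.60. With DZnep 8 of the 9 fell and none rose (median -0.33), with Meis3 at -0.66, Pbx2 at -0.50 and Pbx3 at -0.38. In the SCN 3 of 8 fell and none rose with DZnep (median -0.09). The 11 genes of PRC2, the Polycomb complex that methylates H3K27, gave 8 higher and 3 lower in KO (median 0.21), with the enzyme gene Ezh2 at 1.04, Phf19 at 1.09 and Rbbp7 at 0.45. With DZnep 5 rose and 5 fell (median -0.08), with Eed at 0.54, Phf19 at -0.52 and Jarid2 at -0.40, and Ezh2 did not pass (-0.08, adjusted p = 0.21, limma). In the SCN 2 of 10 rose and 3 fell (median -0.02).

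For PRC1, the Polycomb complex that marks H2A, 8 of 19 genes rose and 11 fell in KO (median -0.19), with Phc2 at 0.87, Kdm2b at 0.44 and Cbx7 at 0.95. With DZnep in fibroblasts 6 rose and 7 fell (median 0.08), with Pcgf1 at -1.19, Cbx2 at 0.36 and Yaf2 at 0.36, and in the SCN 4 of 18 rose and 3 fell (median 0.01). Of the Trithorax genes and H3K27 demethylases, 6 of 12 rose and 5 fell in KO (median 0.07), with Ash2l at -0.58, Paxip1 at 0.64 and Wdr5 at 0.74. In fibroblasts 2 of 10 rose and 4 fell with DZnep (median -0.04), and in the SCN 3 of 14 rose and 3 fell (median 0.01). Of the inducers of the clusters, 1 of 6 rose and 5 fell in KO (median -0.59), among them the retinoic acid receptor genes Rarg at -0.94 and Rara at -0.54. With DZnep in fibroblasts 1 of 4 rose and 3 fell (median -0.37), with Rarg at -0.38 and Rara at -0.35. In the SCN 3 of 5 fell (median -0.24).

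Genes beside the clusters were read the same way, beside the same shares of all genes. Of all genes 42.6% rose and 47% fell in KO, 33.1% rose and 32.7% fell with DZnep in fibroblasts, and 16.9% rose and 18.3% fell in the SCN. Beside HoxC, 5 of 6 fell and none rose in KO (median -0.37), with Smug1, a DNA repair gene, at -1.18, and beside HoxD 4 of 5 rose and 1 fell (median 0.25), with Chn1 at -1.41 and Mtx2, a mitochondrial gene, at 0.99. Beside HoxA 3 of 4 rose and 1 fell (median 0.61, Snx10 at 2.13), and beside HoxB 5 of 6 fell (median -0.23). With DZnep in fibroblasts, 2 of 4 fell beside HoxA (median -0.18), 2 rose and 1 fell of 4 beside HoxB (median 0.16), 2 rose and 4 fell of 6 beside HoxC (median -0.33), and 2 rose and 1 fell of 4 beside HoxD (median 0.22). In the SCN 2 of 4 fell beside HoxA (median -0.07), 1 rose and 2 fell of 6 beside HoxB (median 0.06), 1 rose and 1 fell of 5 beside HoxC (median 0.04), and 1 of 5 fell beside HoxD (median -0.11).

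Among noncoding RNAs of the clusters in KO, 1 of 7 rose and 5 fell (median -3.74), where 42.6% of all genes rose and 47% fell. The RNA 2700086a05rik stood at -3.74 (0, 0.424 and 0.598 TPM in KO, against 8.24, 16.4 and 32.8 TPM in WT). The microRNA gene Mir196a-1 stood at -4.59, and 1700109f18rik rose by 0.99. Of the 10 listed RNAs, 6 stood below 1 TPM in every KO library, 2700086a05rik among them. In every WT library 4 did, 1700109f18rik among them. Such an RNA could be tested only through the other arm, so the filter favoured its direction, and these counts and the median are no support for a common fall. With DZnep in fibroblasts 1 of 2 fell, Mir196a-1 at -0.47. Of 20 other transcription factors that mark body position, 16 were tested in KO, and 8 rose and 8 fell, with a median size of log2 change of 1.01, against 0.45 over all genes. Tbx15, a skin and skeleton gene, stood at 2.02 and Lhx2, a forebrain and limb gene, at 3.85. Of the 20, 5 stood below 1 TPM in every KO library and 6, Lhx2 among them, in every WT library. Such a gene could be tested only through the other arm, so the filter favoured a large difference in it and raised the median size. With DZnep in fibroblasts 4 of 12 rose and 6 fell, with Tbx18 at 1.05 and Emx2 at -0.57, and in the SCN 0 of 4 passed.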

How the data were processed

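RNA was sequenced from mouse fibroblasts (KO, WT, DZnep, DMSO) and SCN punches. Per the labels' protocols, fibroblast libraries used a kit that does not mark strand and SCN libraries a stranded low-input kit. The authors deposited FPKM values for the DZnep and DMSO fibroblasts and for the SCN. The values deposited by the authors for KO and WT were read as TPM, since each library sums to nearly the same total. Per the submitters' processing notes, the tools named were TopHat2 2.1.1 and Cufflinks 2.2.1, with Trimmomatic 0.36 and bcl2fastq 2.18.0.12, and the build mm10, with no roles stated. Read depth is unknown, and so is how the SCN values, whose decimals look like averages, were made.

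Within each experiment libraries were rescaled by median ratios, and log2(value + 1) was fitted with limma 3.58.1 (R 4.3.3, intensity trend), which was tested on simulated data. The planned unit had been FPKM throughout, and the same test was kept for TPM. A gene was tested when 3 or more libraries held a value of at least 1, with Benjamini-Hochberg adjustment over all of them and calls at an adjusted p under 0.05. Level contrasts average over times. Time was tested as a 24 h cosine for KO, WT and SCN and as CT24 minus CT12 for DZnep and DMSO. Repeated gene names in the SCN, 537 of them, were averaged. All 39 Hox genes enter the counts and sums, some results are not reported here, and full values are given, in order of size of change among those called, for at most 6 that rose and 14 that fell in KO, at most 3 and 10 with DZnep, and up to 3 called genes with the smallest p of each other list. The members and lists were chosen with earlier results of these data known. Alternatives were another pseudocount, values as deposited, quantile normalization, other filters, a replicate block, a fold threshold, other time models and leaving out libraries.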

Additional observations from a re-analysis of the deposited data

Results flagged for a closer look

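By Dixon's criterion, 8 of 60 groups of values tested had 1 library far from the others, all 8 in the DMSO arm. Chance alone gives about 1 in 20 where groups are independent. Here the genes of an arm were read in the same libraries, so the 8 cannot be set against that rate. Each DMSO group also pools CT12 and CT24. Replicate 2 of DMSO at CT24 was the high one for 7 genes: 28.4 FPKM for Hoxa3 (others 15.6 to 17.7), 12.0 FPKM for Hoxa9 (others 8.22 to 8.97), 14.5 FPKM for Hoxb3 (others 10.7 to 11.5), 29.9 FPKM for Hoxb6 (others 18.8 to 22.0), 13.3 FPKM for Hoxc4 (others 5.41 to 6.71), 10.2 FPKM for Hoxc5 (others 4.93 to 5.36) and 48.4 FPKM for Hoxc6 (others 33.9 to 37.5). The same library held 196 FPKM of Malat1, 2.33 times its arm's median, and the part of this in the Hox values was not tested. Replicate 1 at CT24 was the low one for Hoxb7, at 12.1 FPKM (others 15.9 to 18.1).

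The 24 h terms differed between KO and WT by limma for 4 of 29 Hox genes, or 13.8%, where 14.5% of all genes did, a share near that of all genes. Among the 4 were Hoxb9 (adjusted p = 0.0099), Hoxd4 (adjusted p = 0.033) and Hoxd3 (adjusted p = 0.046). Hoxd4 and Hoxd3 passed the filter through KO libraries alone and lie near 0 in WT. None of the 4 kept its call with a linear trend in the fit.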

How the results depend on the processing

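Between KO and WT, 7 genes higher and 22 lower held when any 1 of 36 libraries was left out. With a mean of 5 or more 4 were higher, and at a log2 change of 1 or more 4 were higher and 17 lower. With DZnep against DMSO, 2 genes were higher with values as deposited, with the replicate block (15 lower) and without libraries with high Malat1, and at a log2 change of 1 or more 0 were higher and 2 lower. Leaving out 1 library gave 1 to 2 higher and 14 to 16 lower. Among genes not called, Hoxc5 turned to 0.040 and Hoxc9 to 0.00055 with values as deposited, Hoxc10 to -0.015 and Hoxc6 to -0.0087 under quantile normalization, and Hoxc5 to 0.15 without libraries with high Malat1. With 1 library left out, Hoxc5 ran from -0.10 to 0.15, Hoxc6 from -0.038 to 0.078 and Hoxa10 from -0.027 to 0.082.

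For the 24 h terms, the count of genes that differed between KO and WT was 2 with a pseudocount of 0.1, 2 under quantile normalization, 2 with a mean of 5 or more, 13 as any difference among times, 1 without libraries with high Malat1 and 1 to 4 with 1 library left out. The count in WT was 5 under quantile normalization, 20 as any difference, 9 with a linear trend, 8 without CT20 and 2 to 5 with 1 library left out. The count in KO was 1 with a mean of 5 or more, 12 as any difference and 1 with a linear trend. It was 3 to 4 with 1 library left out. With a linear trend none of the genes first called in KO, in WT or between them kept its call. The count of genes that differed between KO and WT was then again 4. The CT24 against CT12 counts with DZnep were 1 higher and 2 lower as deposited, 2 higher with no filter, 0 lower with a mean of 5 or more, 7 higher without libraries with high Malat1, and 1 to 7 higher and 0 to 2 lower with 1 library left out. With DMSO they were 2 higher as deposited, 4 higher with no filter, 0 lower under quantile normalization, and 3 to 13 higher and 0 to 2 lower with 1 library left out. The difference between these arms had 0 to 1 higher and 0 to 1 lower with 1 library left out, the 1 in each case without replicate 3 of DMSO at CT24. The cause was not tested.

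Samples that share a replicate number deviated together only weakly: correlations ran from -0.18 to 0.21 over 18 pairs of KO and WT, from -0.28 to 0.23 over 6 pairs of DZnep and DMSO and from -0.16 to 0.13 over 15 SCN pairs, so the numbers were not taken to pair samples. The replicate block gave 7 higher and 22 lower between KO and WT. The fits without high-Malat1 libraries, without CT20 and with a linear trend were chosen after seeing the data. Unknown depth limits every value near 0.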
